A study of Mus musculus with 32 samples.

Results

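CDAHFD-fed Cyp2b-null female mice were compared with ND-fed Cyp2b-null female mice by RNA sequencing of whole liver. Members were all columns labelled as Cyp2b-null in the female count table, 4 for each diet, which makes 8 of the 32 libraries of the series. The mice carried a germline deletion of Cyp2b9, Cyp2b10 and Cyp2b13, made with CRISPR/Cas9 on the C57Bl/6J background, so mice on either diet lacked the same 3 genes in every cell. Feeding started at 10 weeks of age and lasted 8 weeks. ND was a normal chow with 6.2% fat. CDAHFD was an amino acid-defined diet without choline, with 62% fat and 0.1% methionine. It also held less carbohydrate and more energy per gram than ND. The diets thus differed in fat, carbohydrate, energy density, choline, methionine and protein source together. WT C57Bl/6J females, which were bought from a supplier while the null line was bred separately, and Cyp2b-null males served for comparison, with 8 libraries each.

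Choline is needed to make phosphatidylcholine, the phospholipid that coats the very low density lipoproteins in which the liver exports triglyceride. When choline and methionine are short, triglyceride stays in hepatocytes, and mice on such diets are used as a model of steatohepatitis with fibrosis. In steatohepatitis, monocyte-derived macrophages enter the liver, stellate cells turn into collagen-producing myofibroblasts, and hepatocytes alter their lipid, bile acid and drug metabolism. Cyp2b enzymes are cytochrome P450s that oxidise drugs, steroids and polyunsaturated fatty acids.

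The 8 libraries held 2906411 to 6873396 counts each, over 16721 to 19341 genes with a count, and albumin took 7.24% to 12.7% of the counts. Levels are given as CPM, counts relative to the library total after scaling with the trimmed mean of M-values, and 3 counts correspond to 0.373 to 1.17 CPM on this scale. Cyp2b9 (chr7:26173350-26210661, build GRCm38) had 4 to 8 counts in ND-fed and 2 to 7 in CDAHFD-fed Cyp2b-null females, against 1371 to 3530 in ND-fed and 683 to 1151 in CDAHFD-fed WT females. Cyp2b10 (chr7:25897658-25926624) had 1 to 6 and 0 to 1 counts in the null mice, and Cyp2b13 (chr7:26061388-26096197) had no count on ND and at most 1 on CDAHFD. The null genotype of all 8 libraries was therefore visible in the counts. Every one had a female pattern of Xist and Ddx3y.

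CDAHFD-fed replicate 3, which the study's heat map of female livers leaves out, stood apart from the other libraries. In a principal component analysis of the 16 female libraries, the first component separated the diets, and CDAHFD-fed Cyp2b-null replicate 3 had a score of 61.0 on the second, while the other 15 libraries lay between -16.6 and 19.5. Its median correlation with the other libraries of its group was 0.948, against 0.976 to 0.979 for replicates 1, 2 and 4. In this library 304 genes lay more than 1 log2 unit above and 1025 more than 1 below the mean of the other 3, while the corresponding ranges for those 3 were 105 to 195 and 65 to 179. Transcripts in the shortest 20% (up to 1731 bases) were higher in it by a median of 0.478 log2 units and those in the longest 20% (from 5130 bases) were lower by a median of -0.615. The 69 ribosomal protein genes were higher in it by a median of 0.743 and the haemoglobin genes by 1.66. Xist, a long nuclear RNA, had 144 CPM in it and 437 to 564 CPM in the other 7. Each list below is therefore counted with this library and without it. Leaving it out lowered the median over genes of the standard deviation of log2 CPM among CDAHFD-fed mice from 0.304 to 0.179, where ND-fed mice had 0.242. The diet comparison itself also varied with transcript length. Its median log2 change was 0.159 for the shortest 20% and -0.217 for the longest 20% with all 8 libraries, and 0.012 and -0.107 without replicate 3.

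**Figure D1:**
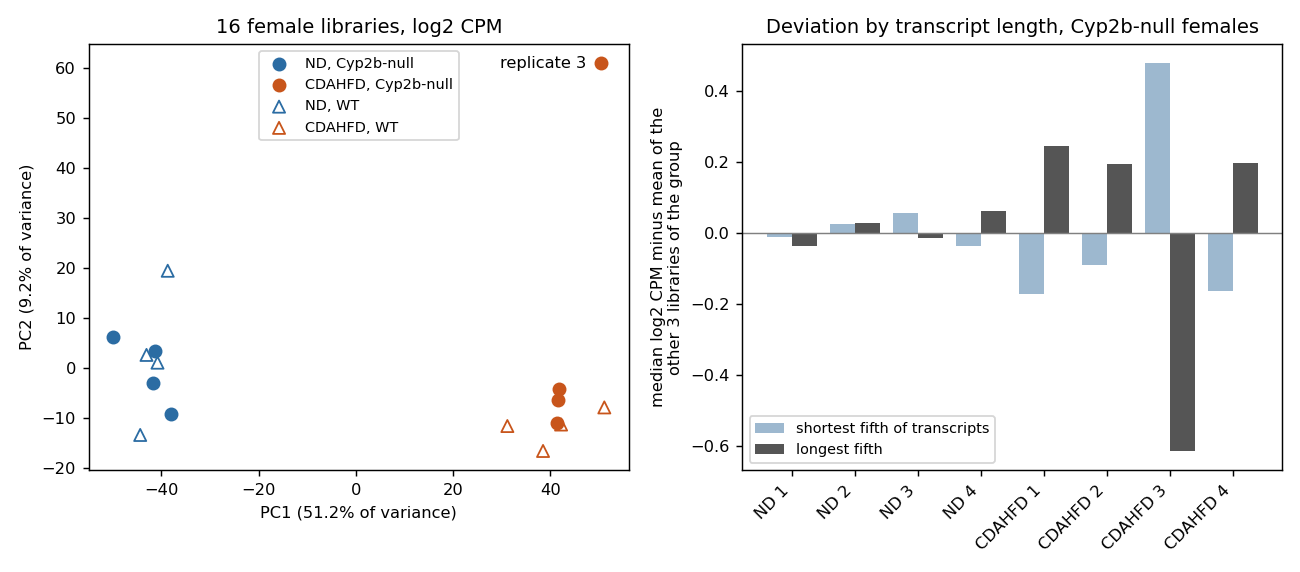
Left, positions of the 16 female libraries on the first and second principal components of log2 CPM, with colours for diet and shapes for genotype. Right, for each of the 8 Cyp2b-null female libraries, the median difference in log2 CPM from the mean of the other 3 libraries of its group, for the shortest and the longest 20% of transcripts. CDAHFD-fed replicate 3 lies at 61.0 on the second component and has medians of 0.478 and -0.615.

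CDAHFD changed a large part of the liver transcriptome of Cyp2b-null females. Of 13226 genes tested, 4074 (30.8%) passed an adjusted p of 0.05 in edgeR's quasi-likelihood test with Benjamini-Hochberg adjustment, 2240 (16.9%) higher and 1834 (13.9%) lower on CDAHFD. Values of the 4 CDAHFD-fed and 4 ND-fed libraries did not overlap for 4043 genes (30.6%), of which 3396 also passed the test. Larger rises outnumbered larger falls: 1226 called genes rose and 461 fell by more than 1 log2 unit, and 412 rose and 83 fell by more than 2. Without replicate 3, 3751 of 13251 genes passed, of which 2085 rose and 1666 fell, and 3340 of the 4074 were called again with the same sign. The balance of directions depended on scaling, since with library size alone 4019 genes were higher and 666 lower, and the median change of all genes moved from 0.03 to 0.28. Below, log2 changes are given with the standard error of the fit (n = 4 per diet), and CPM values run from replicate 1 to replicate 4. A gene is said to have risen or fallen only if it passed the test. Counts in each gene list are to be read beside the shares of all genes tested, 16.9% higher and 13.9% lower. Nothing in the sources says whether the 4 libraries of a group were split by cage or day, so the p-values cannot account for either. The fit estimated its error from all female libraries, WT included. The p-values therefore do not measure the spread among the Cyp2b-null mice alone. With only the groups compared in the fit, 3335 of 12761 genes passed.

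The 12 largest rises among genes with at least 5 CPM and no overlap between diets were in Gpnmb, Mmp12, Sprr1a, Clec4d, Gdf3, Vsig8, Lcn2, Timp1, Ly6d, Mmp13, Adam8 and Gipc2. Gpnmb (chr6:49036518-49058182) encodes a transmembrane glycoprotein of lipid-laden macrophages. It had 0, 0.2, 0 and 0.338 CPM on ND and 245, 326, 225 and 186 CPM on CDAHFD, or 3 counts against 5674, a count ratio of 1349 (95% exact interval 461 to 6544). Mmp12, the macrophage elastase, had 0, 0, 0 and 0.338 CPM on ND and 206, 188, 148 and 132 CPM on CDAHFD, a count ratio of 1360.0 (95% exact interval 376 to 11234). Both genes were close to absent in every ND-fed liver and abundant in every CDAHFD-fed liver. Clec4d, a C-type lectin receptor of myeloid cells, was listed at 0 in the 4 ND-fed libraries and had 8.31, 6.90, 11.001 and 3.61 CPM on CDAHFD, at least 9.35-fold higher against a floor of 3 counts per library. Sprr1a, a cornified envelope precursor that also appears in injured tissue, had 4.67, 8.22, 8.30 and 7.84 CPM on CDAHFD and none on ND, at least 9.11-fold higher. Gdf3, a TGF-beta family ligand, and Vsig8 were likewise at 0 on ND and were at least 7.76-fold and 6.41-fold higher. For genes at 0 on ND the fitted log2 change depends on the prior count and is not quoted.

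Several of the other large rises were secreted or surface proteins. Ly6d, a glycosylphosphatidylinositol-anchored surface protein, had 1.21, 1.60, 0 and 1.69 CPM on ND and 55.5, 103, 120.5 and 133 CPM on CDAHFD (log2 change 6.30 ± 0.56, adjusted p = 8.03e-08). Adam8, a metalloproteinase of leukocytes, had 0.91, 0.401, 0 and 0 CPM on ND and 15.8, 16.6, 16.2 and 12.3 CPM on CDAHFD (log2 change 5.54 ± 0.46, adjusted p = 2.57e-08). The lowest CDAHFD-fed value of each was more than 10 times its highest ND-fed value. Gipc2, a PDZ domain protein, went from 2 counts in all ND-fed libraries together to 5.71, 8.71, 4.51 and 7.34 CPM, a count ratio of 56.7 (95% exact interval 15.4 to 472).

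The 12 largest falls by the same rule were in Sult3a1, Scd1, Cyp2c69, Cd163, Sult2a1, Cyp3a41a, Cyp3a41b, Fam19a2, Cyp2c40, Hamp2, Cyp3a16 and Hao2. Sult3a1, an amine sulfotransferase expressed mainly in female mouse liver, had 39.1, 43.5, 51.9 and 60.4 CPM on ND and 0, 0, 0 and 0.124 CPM on CDAHFD. It thus went from 837 counts to 1 count in total, and the ratio of ND to CDAHFD was 1173 (95% exact interval 210.0 to 46399). Scd1 (chr19:44394450-44407709), the desaturase that makes oleic from stearic acid, had 10915, 9353, 12916 and 9127 CPM on ND and 248, 238, 168 and 73.8 CPM on CDAHFD (log2 change -5.86 ± 0.38, adjusted p = 5.76e-10). The values of the 2 diets did not overlap. Fam19a2, a secreted chemokine-like protein, had 16.1, 3.80, 23.8 and 14.2 CPM on ND and 0.779, 1.48, 0.902 and 0.373 CPM on CDAHFD (log2 change -3.98 ± 0.54, adjusted p = 1.39e-05), and Hao2, a peroxisomal 2-hydroxyacid oxidase, had 37.03, 23.2, 24.96 and 24.3 CPM on ND and 3.63, 2.14, 0.902 and 2.49 CPM on CDAHFD (log2 change -3.60 ± 0.53, adjusted p = 3.15e-05).

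Macrophage genes rose together. All 18 monocyte and macrophage markers were higher on CDAHFD, against 16.9% of all genes tested, with a median log2 change of 2.37 beside 0.03 for all genes, and 17 of 18 were higher without replicate 3. Their summed level was 342 to 537 CPM on ND and 1213 to 2023 CPM on CDAHFD. In whole liver, more cells of a type and more RNA per cell cannot be told apart. Cd68, a lysosomal glycoprotein of macrophages, had 11.5, 12.4, 5.07 and 11.1 CPM on ND and 48.02, 53.3, 66.2 and 43.9 CPM on CDAHFD (log2 change 2.35 ± 0.23, adjusted p = 2.18e-07). Adgre1, which encodes F4/80, had 28.2, 25.4, 22.2 and 26.5 CPM on ND and 51.9, 49.3, 39.9 and 41.9 CPM on CDAHFD (log2 change 0.83 ± 0.17, adjusted p = 0.00088). The groups did not overlap for either gene, and the change in Adgre1 was the smaller. Clec7a, the beta-glucan receptor dectin-1, had 8.19, 7.41, 7.41 and 6.92 CPM on ND and 123, 108, 88.4 and 79.2 CPM on CDAHFD (log2 change 3.73 ± 0.16, adjusted p = 1.21e-12). Ccr2 and Cx3cr1, chemokine receptors of monocytes, had log2 changes of 3.10 ± 0.34 and 3.97 ± 0.44 (adjusted p = 1.13e-06 and 1.33e-06), and Ms4a7 had 3.95 ± 0.53 (adjusted p = 1.3e-05).

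Genes of lipid-associated macrophages, the cells that gather around lipid-filled hepatocytes and adipocytes, rose in 13 of 16 cases and fell in none, with the same count without replicate 3. Itgax, which encodes CD11c, had 0, 0.601, 0.39 and 1.18 CPM on ND and 28.3, 29.1, 20.4 and 21.4 CPM on CDAHFD (log2 change 5.20 ± 0.32, adjusted p = 3.2e-10). Spp1, or osteopontin, had 41.6, 29.2, 31.6 and 31.4 CPM on ND and 149, 225, 117 and 165 CPM on CDAHFD (log2 change 2.30 ± 0.23, adjusted p = 3.44e-07). Lgals3, the lectin galectin-3, had 5.46, 8.21, 3.12 and 6.41 CPM on ND and 138, 134, 186 and 94.5 CPM on CDAHFD (log2 change 4.49 ± 0.26, adjusted p = 1.41e-10). All 3 genes were higher in every CDAHFD-fed mouse than in any ND-fed mouse. The tetraspanin Cd63 changed by 3.85 ± 0.26 and the lipoprotein lipase Lpl by 3.44 ± 0.20 (adjusted p = 1.54e-09 and 1.65e-10). Trem2, a defining receptor of these cells, was listed at 0 in all 8 libraries and gives no information here.

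Markers of resident Kupffer cells did not follow the other macrophage genes. Of 8 tested, 1 rose (12.5%) and 2 fell (25%), with or without replicate 3, beside 16.9% and 13.9% of all genes tested. Counts this small do not set the list apart from all genes, and the genes are described singly. Clec4f, the lectin specific to mouse Kupffer cells, had 167, 169, 108 and 162 CPM on ND and 148, 98.3, 187 and 132 CPM on CDAHFD (log2 change -0.10 ± 0.21, adjusted p = 0.747), with overlapping groups. Timd4, a phosphatidylserine receptor of long-lived Kupffer cells, had 13.7, 9.21, 8.19 and 9.79 CPM on ND and 1.04, 1.15, 1.26 and 2.36 CPM on CDAHFD (log2 change -2.71 ± 0.34, adjusted p = 6.58e-06). Cd163, the haemoglobin-haptoglobin scavenger receptor, had 29.1, 33.6, 19.9 and 35.1 CPM on ND and 1.04, 0.493, 1.80 and 1.49 CPM on CDAHFD (log2 change -4.57 ± 0.52, adjusted p = 1.91e-06). Timd4 and Cd163 were lower in every CDAHFD-fed liver. Cd5l, an apoptosis inhibitor of macrophages, rose from 152, 156, 99.8 and 159 to 301, 206, 316 and 226 CPM (log2 change 0.88 ± 0.20, adjusted p = 0.00224).

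Among other leukocytes the counts were small. Only 3 of 12 neutrophil markers were high enough to be tested. These were the calprotectin subunits S100a8 (log2 change 3.45 ± 0.44, adjusted p = 7.73e-06) and S100a9 (log2 change 2.58 ± 0.55, adjusted p = 0.00124) and the receptor Csf3r (log2 change 1.74 ± 0.35, adjusted p = 0.000787), and all 3 rose with or without replicate 3, while Ly6g was at 0. S100a8 stayed at or below 7.01 CPM in every library. Of 23 T, B and NK cell markers 7 were tested and 3 rose, but 1 of 5 without replicate 3. The chemokine Ccl5 had 0.607, 1.80, 0.78 and 1.35 CPM on ND and 10.9, 4.11, 11.001 and 7.21 CPM on CDAHFD (log2 change 2.71 ± 0.42, adjusted p = 5.18e-05). The members that rose were Ccl5 and the granule proteins Nkg7 and Gzma. The B cell receptor subunit Cd79a had 0.303, 4.01, 1.17 and 2.36 CPM on ND and 1.04, 2.96, 3.07 and 1.87 CPM on CDAHFD and did not pass, while the T cell receptor subunit Cd3e, with 0.303, 0.2, 0 and 1.35 CPM on ND and 1.30, 1.32, 1.80 and 1.87 CPM on CDAHFD, was below the count filter and was not tested. The dendritic cell list had 1 of 4 tested members higher, Ccr7 (log2 change 1.99 ± 0.57, adjusted p = 0.0113), which guides cells to lymph nodes, and 2 of 3 without replicate 3.

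Antigen presentation and chemokine genes rose beside the macrophage markers. All 8 MHC class II genes tested were higher (median 2.17), with or without replicate 3. Cd74, the invariant chain, had 94.99, 99.9, 54.2 and 95.5 CPM on ND and 326, 297, 501 and 294 CPM on CDAHFD (log2 change 2.03 ± 0.24, adjusted p = 2.6e-06). The class II chains H2-Ab1 and H2-Eb1 rose by 2.23 ± 0.24 and 2.25 ± 0.23, the peptide-loading chain H2-DMa by 2.18 ± 0.32 and the protease Ctss, which trims the invariant chain, by 2.28 ± 0.20 (adjusted p at most 3.18e-05). Of 22 chemokines and chemokine receptors 18 rose and 2 fell (17 and 2 without replicate 3). Ccl2, which draws CCR2-positive monocytes, had 0.303, 0.601, 0.39 and 1.01 CPM on ND and 14.02, 6.58, 9.56 and 8.58 CPM on CDAHFD (log2 change 3.83 ± 0.40, adjusted p = 5.96e-07). Cxcl10, an interferon-induced ligand of CXCR3, had 2.73, 3.004, 1.95 and 4.22 CPM on ND and 22.1, 14.6, 16.1 and 22.8 CPM on CDAHFD (log2 change 2.57 ± 0.28, adjusted p = 7.76e-07). Both were low on ND and higher in every CDAHFD-fed liver. The members that fell were Cxcl12 (log2 change -0.85 ± 0.15, adjusted p = 0.000235), a homeostatic ligand of CXCR4, and the B cell attractant Cxcl13 (log2 change -3.42 ± 0.66, adjusted p = 0.000556).

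Matrix genes were higher on CDAHFD, led by fibrillar collagens. Of 18 collagen genes 13 rose and 1 fell, with the same counts without replicate 3, and the median was 1.19. Col1a1, a chain of type I collagen, had 3.64, 2.60, 5.46 and 5.06 CPM on ND and 63.3, 86.6, 77.01 and 62.7 CPM on CDAHFD (log2 change 4.13 ± 0.37, adjusted p = 7.1e-08). Col3a1, the type III chain, had 26.7, 14.4, 25.7 and 24.98 CPM on ND and 204, 267, 204 and 185 CPM on CDAHFD (log2 change 3.24 ± 0.20, adjusted p = 4.71e-10). Col1a2 had 13.96, 9.21, 11.7 and 10.6 CPM on ND and 81.2, 93.4, 78.6 and 72.02 CPM on CDAHFD (log2 change 2.85 ± 0.18, adjusted p = 4.71e-10). All 3 fibrillar chains were several-fold higher in each CDAHFD-fed mouse, without overlap. Smaller rises were seen for Col5a2 (1.99 ± 0.30), Col6a3 (1.85 ± 0.27) and Col6a2 (1.55 ± 0.29), all with adjusted p at most 0.000329. The member that fell was Col27a1 (log2 change -1.34 ± 0.26, adjusted p = 0.000648).

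Of 24 matrix proteins, proteases, inhibitors and lysyl oxidases 18 rose and 1 fell (20 and 1 without replicate 3). Timp1, an inhibitor of matrix metalloproteinases, had 0, 0.2, 0 and 0 CPM on ND and 5.97, 7.23, 13.3 and 5.47 CPM on CDAHFD, a count ratio of 132 (95% exact interval 23.4 to 5240.3). Mmp13, the interstitial collagenase of mice, had 0, 0.401, 0 and 0.169 CPM on ND and 17.4, 7.40, 6.85 and 9.95 CPM on CDAHFD, a count ratio of 54.7 (95% exact interval 18.5 to 267). The inhibitor and the collagenase were thus both near 0 on ND and present in all 4 CDAHFD-fed livers. Tnc, the matricellular protein tenascin C, rose by 3.09 ± 0.43 and Eln, elastin, by 2.41 ± 0.38 (adjusted p = 1.84e-05 and 7.58e-05). The member that fell was Fn1, fibronectin (log2 change -0.58 ± 0.16, adjusted p = 0.00995), which hepatocytes secrete into plasma.

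Markers of stellate cells and myofibroblasts, the cells that make most collagen in injured liver, rose in 10 of 17 cases (9 without replicate 3) and fell in none. Their summed level was 422 to 494 CPM on ND and 698 to 826 on CDAHFD, and its part in the collagen changes was not tested. Acta2, smooth muscle actin, had 0.91, 0.2, 0.78 and 0.844 CPM on ND and 3.89, 6.25, 6.49 and 4.73 CPM on CDAHFD (log2 change 2.98 ± 0.46, adjusted p = 5.67e-05). Tagln, another smooth muscle protein, had 6.68, 4.41, 5.07 and 7.43 CPM on ND and 22.6, 29.8, 40.8 and 31.7 CPM on CDAHFD (log2 change 2.39 ± 0.25, adjusted p = 5.3e-07). Both contractile genes were higher in every CDAHFD-fed mouse. The proteoglycan Lum rose by 2.34 ± 0.23, the intermediate filament Vim by 1.96 ± 0.19 and the growth factor receptor Pdgfrb by 1.29 ± 0.22 (adjusted p at most 0.000157).

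In the TGF-beta list 8 of 21 genes rose and 3 fell (10 and 3 without replicate 3, and 10 and 2 with library size alone). The 8 were 38.1% of the list, beside 16.9% of all genes, and the 3 were 14.3%, near the 13.9% of all genes. The ligand Tgfb1 had 14.9, 12.2, 8.58 and 9.28 CPM on ND and 23.9, 22.9, 29.4 and 21.5 CPM on CDAHFD (log2 change 1.12 ± 0.21, adjusted p = 0.000424). The study named Tgfb2 from these samples for CDAHFD-fed Cyp2b-null against CDAHFD-fed WT females. Tgfb2 had 0.303, 1.001, 0.39 and 0.169 CPM on ND and 2.34, 2.63, 1.08 and 2.74 CPM on CDAHFD (log2 change 2.16 ± 0.49, adjusted p = 0.00214). Both ligands were higher in every CDAHFD-fed mouse, but Tgfb2 was close to the count floor on ND. Ltbp1, which anchors latent TGF-beta in the matrix, rose by 1.67 ± 0.37, the activin chain Inhbe by 1.34 ± 0.25, the TGF-beta-induced adhesion protein Tgfbi by 1.201 ± 0.12 and the endothelial receptor Acvrl1 by 1.13 ± 0.30 (adjusted p at most 0.00774). The members that fell were the co-receptor Tgfbr3 (-1.10 ± 0.22), the shared signal transducer Smad4 (-0.53 ± 0.14) and the ligand Bmp2 (log2 change -1.01 ± 0.19, adjusted p = 0.000358).

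**Figure D2:**
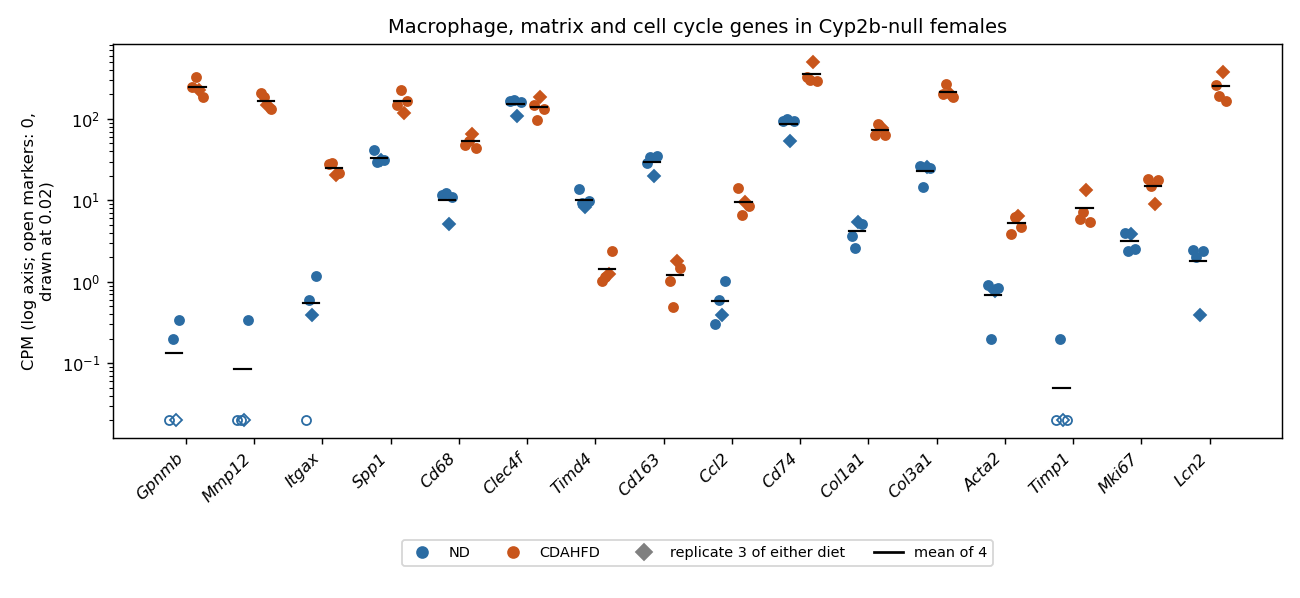
CPM on a log axis in each Cyp2b-null female library for 16 macrophage, matrix, cell cycle and acute phase genes, with blue for ND, orange for CDAHFD, diamonds for replicate 3, lines for the mean of 4 and open markers for 0. For Gpnmb and Mmp12 the ND-fed libraries lie at 0 to 0.338 and the CDAHFD-fed libraries at 132 or more, while Clec4f overlaps between diets.

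Endothelial markers went mostly the other way. Of 18 sinusoidal and vascular markers 9 fell and 2 rose, also without replicate 3, against 13.9% of all genes lower. Kdr, the main receptor for vascular endothelial growth factor, had 66.8, 69.9, 56.2 and 67.7 CPM on ND and 21.02, 26.1, 17.5 and 30.1 CPM on CDAHFD (log2 change -1.45 ± 0.18, adjusted p = 5.18e-06). Dnase1l3, a nuclease of sinusoidal cells and macrophages, had 81.6, 83.5, 56.9 and 69.5 CPM on ND and 24.4, 36.8, 47.8 and 35.6 CPM on CDAHFD (log2 change -1.01 ± 0.18, adjusted p = 0.000314). The values of both were lower in every CDAHFD-fed liver. Stab2, a hyaluronan scavenger receptor, had 58.6, 55.9, 49.5 and 65.8 CPM on ND and 46.7, 49.8, 45.3 and 49.1 CPM on CDAHFD and did not pass the test (log2 change -0.27 ± 0.15, adjusted p = 0.166). The members that rose were Cd34 (log2 change 1.70 ± 0.42, adjusted p = 0.00448) and Plvap (log2 change 0.87 ± 0.16, adjusted p = 0.000267), both found in capillary endothelium.

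Progenitor and proliferation genes were also higher. In the cholangiocyte and progenitor list 6 of 11 rose and none fell, with or without replicate 3. H19, a fetal non-coding RNA, had 0.91, 0, 0.78 and 0.844 CPM on ND and 19.5, 12.99, 14.6 and 10.6 CPM on CDAHFD (log2 change 4.51 ± 0.53, adjusted p = 2.58e-06). Krt23, a keratin of injured liver, rose by 2.33 ± 0.43 and the surface protein Cd24a by 1.66 ± 0.39 (adjusted p = 0.000346 and 0.00295). The defining cholangiocyte keratins Krt19 and Krt7 had log2 changes of 0.77 ± 0.55 and 0.87 ± 0.55 and did not pass the test (adjusted p = 0.307 and 0.239). Of 20 cell cycle genes 14 rose and none fell, with or without replicate 3. Mki67, a marker of cycling cells, had 3.95, 2.403, 3.90 and 2.53 CPM on ND and 18.4, 15.1, 9.02 and 17.8 CPM on CDAHFD (log2 change 2.30 ± 0.27, adjusted p = 2.84e-06). The mitotic genes Ccnb2, Cdc20 and Birc5 rose by 3.996 ± 0.38, 3.91 ± 0.47 and 3.56 ± 0.40 (adjusted p at most 3.5e-06), from under 2 CPM on ND. Pcna, the sliding clamp of DNA replication, had 20.03, 16.4, 18.3 and 16.7 CPM on ND and 18.7, 23.8, 22.7 and 21.3 CPM on CDAHFD and did not pass (log2 change 0.29 ± 0.16, adjusted p = 0.182), but it did with library size alone. Cdkn1a, the cell cycle inhibitor p21, had 0, 1.202, 0.39 and 1.35 CPM on ND and 15.3, 16.1, 15.1 and 18.5 CPM on CDAHFD (log2 change 4.18 ± 0.80, adjusted p = 0.000484), a call that DESeq2 did not make.

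Lipid synthesis fell across the pathway. Of 20 fatty acid synthesis and desaturation genes 17 fell and 0 rose, against 13.9% of all genes lower, with a median log2 change of -1.61 (16 lower and 1 higher without replicate 3). Fasn, fatty acid synthase, had 1007, 667, 846 and 579.9 CPM on ND and 120.4, 167, 154 and 157 CPM on CDAHFD (log2 change -2.37 ± 0.33, adjusted p = 2.13e-05). Elovl6, which elongates palmitate, had 425, 176, 222 and 143 CPM on ND and 42.3, 47.2, 37.2 and 47.5 CPM on CDAHFD (log2 change -2.46 ± 0.35, adjusted p = 2.47e-05). Me1, the malic enzyme that supplies NADPH, had 244, 264, 193 and 203 CPM on ND and 32.4, 26.1, 26.9 and 42.9 CPM on CDAHFD (log2 change -2.81 ± 0.20, adjusted p = 2.47e-09). Each of the 3 was lower in every CDAHFD-fed liver. Srebf1, the transcription factor that drives many of these genes, changed less, from 322, 272, 310.4 and 235 to 143, 140.4, 175 and 133 CPM (log2 change -0.95 ± 0.19, adjusted p = 0.000909). Thrsp, a lipogenic regulator, fell by 2.59 ± 0.54 and Acss2, which activates acetate, fell by 2.43 ± 0.38 on the log2 scale (adjusted p = 0.00102 and 5.81e-05). Elovl3 (log2 change -0.50 ± 0.56) and the desaturases Scd2 (0.46 ± 0.26) and Fads2 (0.16 ± 0.21) did not pass.

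Cholesterol synthesis and uptake genes followed the same direction. Of 24 genes 21 fell and none rose, with or without replicate 3, and the median was -1.52. Sqle, squalene epoxidase, had 176, 47.5, 119 and 160.3 CPM on ND and 30.4, 50.5, 34.6 and 42.2 CPM on CDAHFD (log2 change -1.66 ± 0.37, adjusted p = 0.00185). ND-fed mice varied widely for Sqle, and the lowest ND-fed value lay within the CDAHFD-fed range while the other 3 lay above it. Insig1, a sterol-sensing membrane protein, fell from 913, 365, 923 and 424 to 129.5, 151, 139 and 185 CPM (log2 change -2.12 ± 0.33, adjusted p = 5.55e-05). The isoprenoid enzymes Idi1 and Fdps changed by -1.96 ± 0.36 and -1.85 ± 0.33 (adjusted p at most 0.00034).

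Bile acid genes fell in 13 of 23 cases and rose in 1 (13 and 0 without replicate 3, and 7 and 3 with library size alone). Cyp7a1, the rate-limiting enzyme of the classical pathway, had 167, 26.8, 145 and 54.3 CPM on ND and 93.7, 91.4, 71.8 and 59.3 CPM on CDAHFD, overlapped between diets and did not pass (log2 change -0.30 ± 0.44, adjusted p = 0.639). Cyp27a1 opens the alternative pathway, and the study named it for CDAHFD-fed Cyp2b-null against CDAHFD-fed WT females. It had 536, 515, 572 and 532 CPM on ND and 248, 259.6, 309 and 241 CPM on CDAHFD (log2 change -1.03 ± 0.12, adjusted p = 1.69e-06). Slc10a1, the sodium-dependent bile acid importer, had 824, 677, 827 and 731 CPM on ND and 286, 308, 346 and 269 CPM on CDAHFD (log2 change -1.34 ± 0.16, adjusted p = 4.48e-06). The latter pair was lower in every CDAHFD-fed liver. The reductase Akr1d1 (-1.13 ± 0.21), the bile acid CoA ligase Slc27a5 (-1.07 ± 0.15) and the importers Slco1a4 (-1.04 ± 0.20) and Slco1b2 (-0.96 ± 0.15) also fell (adjusted p at most 0.000484). The member that rose was the exporter subunit Slc51b (log2 change 1.53 ± 0.52, adjusted p = 0.0307), whose call was absent without replicate 3.

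Fatty acid oxidation showed no common direction. Of 27 genes 5 rose (18.5%) and 6 fell (22.2%), beside 16.9% and 13.9% of all genes tested. Without replicate 3 the counts were 3 and 4. With library size alone they were 6 and 2, and the median of -0.17 became 0.09. The mitochondrial thioesterase Acot2 rose (log2 change 1.16 ± 0.30, adjusted p = 0.00646). Cpt1a, which admits long-chain acyl groups to mitochondria, had 432, 462, 329 and 474 CPM on ND and 587, 630.5, 381 and 642 CPM on CDAHFD and did not pass (log2 change 0.40 ± 0.20, adjusted p = 0.14), but it passed without replicate 3 and with library size alone (adjusted p = 0.0381 and 0.0149).

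Lipid storage and uptake genes were divided. In the lipid droplet and triglyceride list 6 of 19 rose and 2 fell (5 and 3 without replicate 3, and 10 and 1 with library size alone). The 6 and 2 were 31.6% and 10.5% of the list, beside 16.9% and 13.9% of all genes. Cidec, which fuses lipid droplets, had 3.64, 3.004, 1.56 and 2.19 CPM on ND and 16.4, 22.7, 20.7 and 44.03 CPM on CDAHFD (log2 change 3.32 ± 0.44, adjusted p = 1.23e-05). The droplet coat proteins Plin4 and Plin3 rose by 2.43 ± 0.42 and 0.72 ± 0.18, and the droplet enzyme Hsd17b13 by 0.83 ± 0.13 (adjusted p at most 0.00541). Mttp, which loads triglyceride onto lipoproteins for export, had 413, 444, 392 and 438 CPM on ND and 221, 223, 142 and 239 CPM on CDAHFD (log2 change -1.03 ± 0.15, adjusted p = 2.21e-05), and Dgat2, which forms triglyceride, also fell (log2 change -0.54 ± 0.14, adjusted p = 0.00628). Cidec and Mttp thus moved in opposite directions in the same livers. Cidea was listed at 0 in all 8 libraries.

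Among 17 uptake and binding genes 5 rose and 7 fell (5 and 8 without replicate 3, and 6 and 6 with library size alone). Cd36, the fatty acid translocase of hepatocytes and macrophages, had 200.3, 129, 137 and 150.0 CPM on ND and 369.9, 341, 254 and 314 CPM on CDAHFD (log2 change 1.05 ± 0.15, adjusted p = 2.39e-05). Fabp4, the adipocyte and macrophage binding protein, rose by 1.48 ± 0.28 and the intestinal-type Fabp2 by 1.69 ± 0.21 (adjusted p = 0.000475 and 4.38e-06). Acsl1, which activates fatty acids, fell by 1.35 ± 0.22 and the lipoprotein receptor Vldlr by 1.83 ± 0.34 on the log2 scale (adjusted p = 9.2e-05 and 0.000338).

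CDAHFD lacks choline, and the enzymes that use and supply methyl groups were examined as a list. Of 28 genes 14 fell and 2 rose (12 and 2 without replicate 3, and 4 and 4 with library size alone). Gnmt, which consumes S-adenosylmethionine, had 2663, 1746, 2670.2 and 1277 CPM on ND and 757, 682, 903 and 487 CPM on CDAHFD (log2 change -1.56 ± 0.26, adjusted p = 0.000136). Ahcy, which clears S-adenosylhomocysteine, had 549.9, 423, 519.8 and 354 CPM on ND and 241, 218, 281 and 205 CPM on CDAHFD (log2 change -0.97 ± 0.17, adjusted p = 0.000208). Shmt1, which passes a serine carbon to folate, fell by 0.88 ± 0.16 on the log2 scale (adjusted p = 0.000314). Mat2a, the S-adenosylmethionine synthetase of non-hepatocytes and dividing hepatocytes, had 18.5, 27.4, 16.4 and 21.6 CPM on ND and 38.7, 46.7, 25.6 and 55.7 CPM on CDAHFD (log2 change 0.97 ± 0.21, adjusted p = 0.00148), and the folate enzyme Mthfd1l was the other member that rose (log2 change 1.09 ± 0.40, adjusted p = 0.0433). Pemt, which makes phosphatidylcholine from phosphatidylethanolamine, had 366, 375, 405 and 329 CPM on ND and 296, 325, 557 and 343 CPM on CDAHFD (log2 change 0.05 ± 0.17, adjusted p = 0.866). Bhmt, which remethylates homocysteine with betaine, had 1305, 489, 962 and 805 CPM on ND and 1532, 1378, 1185 and 771 CPM on CDAHFD (log2 change 0.45 ± 0.34, adjusted p = 0.337). For both the diets overlapped, and Pemt was highest in replicate 3. Chka, choline kinase, had a log2 change of 0.58 ± 0.29 (adjusted p = 0.133) and passed with library size alone and with no low-count filter.

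Genes of carbohydrate and nitrogen metabolism changed in part. Of 22 glucose and glycogen genes 10 fell and 6 rose (9 and 6 without replicate 3, and 5 and 6 with library size alone). G6pc, the last enzyme of glucose release, had 208, 218, 403 and 436 CPM on ND and 77.1, 81.2, 77.9 and 72.6 CPM on CDAHFD (log2 change -2.03 ± 0.31, adjusted p = 4.14e-05). Every CDAHFD-fed liver lay below the ND-fed range. The liver pyruvate kinase Pklr fell by 1.54 ± 0.24 and the glycogen regulator Ppp1r3b by 2.37 ± 0.26 (adjusted p at most 6e-05). The members that rose were the pyruvate kinase Pkm (log2 change 1.97 ± 0.16, adjusted p = 2.57e-08), the hexokinases Hk1, Hk2 and Hk3 and the pentose phosphate enzymes G6pdx and Pgd. Hk3, a hexokinase of myeloid cells, had 5.46, 5.81, 6.24 and 5.74 CPM on ND and 24.4, 20.2, 16.4 and 17.04 CPM on CDAHFD (log2 change 1.74 ± 0.25, adjusted p = 2.21e-05). Of 24 urea cycle and amino acid genes 13 fell and none rose (17 and 0 without replicate 3, and 8 and 1 with library size alone). Cps1, which commits ammonia to the urea cycle, had 3307, 2575, 3344 and 1962 CPM on ND and 1529, 1460.4, 877 and 1334 CPM on CDAHFD (log2 change -1.11 ± 0.18, adjusted p = 0.000114). Tat, tyrosine aminotransferase, had 2099, 817, 1712 and 612 CPM on ND and 451, 345, 492 and 504 CPM on CDAHFD (log2 change -1.55 ± 0.32, adjusted p = 0.00105). The urea cycle enzymes Arg1 and Asl changed by -0.97 ± 0.17 and -0.89 ± 0.21, the kynurenine pathway enzyme Haao by -1.05 ± 0.20 and the glutaminase Gls2 by -0.82 ± 0.21 (adjusted p at most 0.00489).

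**Figure D3:**
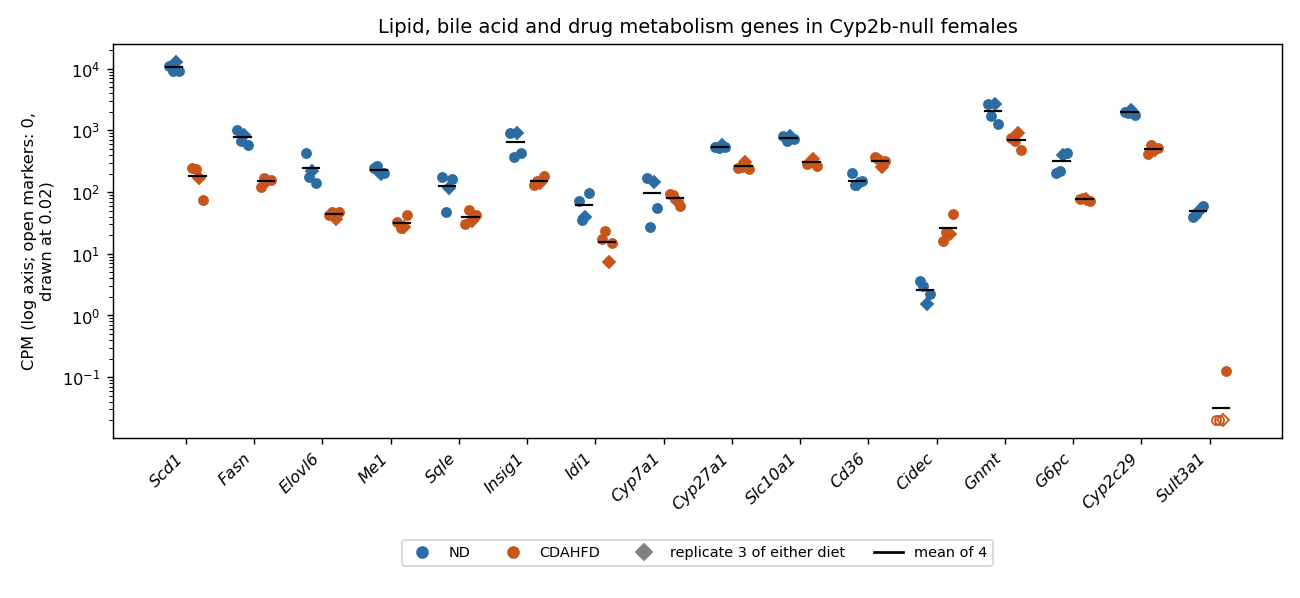
CPM on a log axis in each Cyp2b-null female library for 16 genes of lipid, bile acid, sugar and drug metabolism, with blue for ND, orange for CDAHFD, diamonds for replicate 3, lines for the mean of 4 and open markers for 0. Scd1 lies at 9127 CPM or more on ND and at 248 or less on CDAHFD, while Cyp7a1 and Sqle overlap between diets.

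Genes that define hepatocytes were lower. Of 18 hepatocyte genes 11 fell and none rose (13 without replicate 3 and 5 with library size alone). Their summed level was 184213 to 226298 CPM on ND and 103413 to 160718 on CDAHFD. The part of this fall in the falls of other hepatocyte genes was not tested. Alb changed by -0.72 ± 0.16 (adjusted p = 0.00232), and Hnf4a, a central transcription factor of hepatocytes, had 815, 858, 709 and 693 CPM on ND and 442, 432, 412 and 508 CPM on CDAHFD (log2 change -0.78 ± 0.16, adjusted p = 0.00102). The protease inhibitors Serpina3k and Serpina1c fell by 1.28 ± 0.28 and 1.08 ± 0.18 and the fibrinogen chains Fgb and Fga by 0.74 ± 0.18 and 0.68 ± 0.20 (adjusted p at most 0.0121), but Fga lost its call with library size alone. With that scaling Alb and Hnf4a changed by -0.48 and -0.52.

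Drug-metabolising enzymes were the family of the deleted genes, and most called members were lower. Of 42 remaining Cyp1, Cyp2 and Cyp3 genes 25 fell and 1 rose (29 and 1 without replicate 3, and 18 and 1 with library size alone). Cyp2c69 had 715, 751, 785 and 983 CPM on ND and 7.01, 16.9, 31.4 and 15.5 CPM on CDAHFD (log2 change -5.49 ± 0.35, adjusted p = 4.91e-10). Cyp2c40 had 663, 716, 659 and 825 CPM on ND and 22.6, 40.1, 81.2 and 47.6 CPM on CDAHFD (log2 change -3.89 ± 0.32, adjusted p = 2.2e-08). Replicate 3 was the highest CDAHFD-fed library for both and still far below ND. Cyp3a41a had 409, 64.9, 535 and 208 CPM on ND and 4.41, 37.6, 17.5 and 6.09 CPM on CDAHFD (log2 change -4.19 ± 0.79, adjusted p = 0.000426). Its groups did not overlap, although ND-fed mice differed several-fold among themselves. Cyp3a41b and Cyp3a16 fell by 4.07 ± 0.65 and 3.62 ± 0.73 (adjusted p = 7.37e-05 and 0.000766). These Cyp2c and Cyp3a genes have near-identical copies, and how the counting assigned shared reads is not stated, so the split between copies is uncertain.

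The more widely expressed family members changed less. Cyp2c29, a retinoid and arachidonic acid oxidase, had 2009, 1918, 2164 and 1776 CPM on ND and 413, 586, 481 and 515 CPM on CDAHFD (log2 change -1.98 ± 0.18, adjusted p = 8.03e-08). Cyp3a11, the main drug oxidase of its subfamily, had 3249.7, 3807, 3947 and 2995 CPM on ND and 2407, 2224, 1651 and 2489.8 CPM on CDAHFD (log2 change -0.67 ± 0.18, adjusted p = 0.00737), a call lost with library size alone. Cyp2e1, the ethanol oxidase, had 7874, 8750.4, 7513 and 8165 CPM on ND and 5687, 6589.8, 6367 and 5393 CPM on CDAHFD. It did not pass (log2 change -0.43 ± 0.17, adjusted p = 0.0587), although no value on CDAHFD reached the ND-fed range. It passed with DESeq2, with no low-count filter, with the replicate block and with only the groups compared (adjusted p = 0.0435, 0.0306, 0.0307 and 0.0248), and without ND-fed WT replicate 2 or CDAHFD-fed WT replicate 4 (down to 0.0265). Cyp1a2 had a log2 change of -0.37 ± 0.21 (adjusted p = 0.196). Cyp2a22 fell by 1.23 ± 0.26 on the log2 scale (adjusted p = 0.00134). The member that rose was Cyp2d12, from at most 0.39 to at most 3.25 CPM. The neighbours of the deleted genes, Cyp2a4 and Cyp2a5, overlapped between diets with adjusted p of 0.0528 and 0.0549, and passed without replicate 3 (adjusted p = 0.0129 and 0.049), as did Cyp2g1 (adjusted p = 0.193 and 0.0373). With no low-count filter these 3 genes passed too (adjusted p at most 0.0332), as did Cyp2a4 and Cyp2a5 with only the groups compared (adjusted p = 0.0191 and 0.0278). Cyp2a4 also passed without other single libraries, in all without CDAHFD-fed WT replicates 1 or 3, ND-fed Cyp2b-null replicate 3 or CDAHFD-fed Cyp2b-null replicate 3, and Cyp2a5 without ND-fed WT replicates 1, 2 or 3, CDAHFD-fed WT replicate 3, ND-fed Cyp2b-null replicate 4 or CDAHFD-fed Cyp2b-null replicate 3 (down to 0.0129 and 0.0205).

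The promoters of these genes are shown because the members moved together. Letters run from 250 bases before the annotated start to the base before it, 5′ to 3′ on the strand given, from RefSeq on build GRCm38.p6, and capitals mark the motif CAAAGTCCA, searched on both strands as a core bound by HNF4.
Cyp2c69, chr19:39886770-39887019, - strand: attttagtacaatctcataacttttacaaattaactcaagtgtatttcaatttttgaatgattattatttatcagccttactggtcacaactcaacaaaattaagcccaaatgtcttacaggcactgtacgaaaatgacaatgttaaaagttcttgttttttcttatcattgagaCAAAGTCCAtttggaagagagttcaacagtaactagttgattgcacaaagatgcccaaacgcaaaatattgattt
Cyp2c40, chr19:39812815-39813064, - strand: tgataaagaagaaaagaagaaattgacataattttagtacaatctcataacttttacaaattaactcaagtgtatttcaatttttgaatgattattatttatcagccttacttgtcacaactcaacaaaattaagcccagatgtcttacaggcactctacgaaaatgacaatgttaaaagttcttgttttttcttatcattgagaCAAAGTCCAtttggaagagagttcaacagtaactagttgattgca
Cyp3a41a, chr5:145720137-145720386, - strand: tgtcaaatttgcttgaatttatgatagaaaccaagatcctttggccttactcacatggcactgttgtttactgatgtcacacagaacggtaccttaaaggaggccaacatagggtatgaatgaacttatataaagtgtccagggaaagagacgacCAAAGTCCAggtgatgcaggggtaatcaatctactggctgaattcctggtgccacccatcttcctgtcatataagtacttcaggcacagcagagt
Cyp3a16, chr5:145469724-145469973, - strand: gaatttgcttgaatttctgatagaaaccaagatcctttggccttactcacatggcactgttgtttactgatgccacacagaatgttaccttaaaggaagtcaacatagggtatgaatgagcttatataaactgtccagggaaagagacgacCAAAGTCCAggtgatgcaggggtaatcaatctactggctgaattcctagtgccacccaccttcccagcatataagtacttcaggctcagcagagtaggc
The motif lay in 5 of 9 promoters found for the 12 largest falls (55.6%), those of Cyp2c40, Cyp2c69, Cyp3a16, Cyp3a41a and Cyp3a41b. It lay in 1 of 11 promoters of the 12 largest rises, that of Gpnmb, and in 0.384% of all 32851 promoters of the same length. Without gaps and shifted by 30 bases, the Cyp2c40 and Cyp2c69 promoters were identical at 98.6% of positions. The Cyp3a41a promoter matched that of Cyp3a41b at 99.6% and, shifted by 4 bases, that of Cyp3a16 at 93.9%, so the 5 matches come from related sequences and are not independent. A match is a description of the sequence and says nothing of binding in these livers.

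For the largest rises the AP-1 motif TGANTCA, searched on both strands, lay in 3 of 11 promoters (27.3%), those of Mmp12, Mmp13 and Sprr1a, against 6.75% of all promoters and 1 of 9 promoters of the largest falls, that of Hamp2. The promoter of Mmp13 and that of the downstream start of Mmp12, both metalloproteinases whose rises are given above, are shown with this motif in capitals.
Mmp13, chr9:7272264-7272513, + strand: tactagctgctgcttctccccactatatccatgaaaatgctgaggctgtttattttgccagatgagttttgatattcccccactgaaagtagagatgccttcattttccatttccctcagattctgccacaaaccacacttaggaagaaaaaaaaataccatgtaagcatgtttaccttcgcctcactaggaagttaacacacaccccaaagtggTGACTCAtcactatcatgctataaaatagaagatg
Mmp12, chr9:7347124-7347373, + strand: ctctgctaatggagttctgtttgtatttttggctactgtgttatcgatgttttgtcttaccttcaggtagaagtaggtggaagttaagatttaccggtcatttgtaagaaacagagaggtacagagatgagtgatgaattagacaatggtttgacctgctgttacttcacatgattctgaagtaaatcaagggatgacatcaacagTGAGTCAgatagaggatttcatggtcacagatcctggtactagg
A PU.1 motif, AGAGGAAGT, was found in 1 of the 11 promoters, that of the upstream Mmp12 start (0.798% of all promoters). A sterol regulatory motif, TCACNCCAC, was found in none of the 20 promoters searched (1.05% of all), which do not include that of Scd1. In the promoters printed no motif overlapped another.

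Conjugating enzymes were divided. Of 39 phase 2 genes 18 fell and 5 rose (17 and 4 without replicate 3, and 10 and 8 with library size alone). Sult2a1, a hydroxysteroid sulfotransferase, had 498, 161, 427 and 244 CPM on ND and 6.75, 34.5, 8.30 and 10.8 CPM on CDAHFD (log2 change -4.43 ± 0.77, adjusted p = 0.000202). Its close copy Sult2a2 changed by -2.82 ± 0.58 (adjusted p = 0.000922), and the reads of the copies may be shared. Ugt1a5, a glucuronosyltransferase, had 164, 85.9, 139.6 and 89.4 CPM on ND and 17.7, 13.2, 4.87 and 15.8 CPM on CDAHFD (log2 change -3.21 ± 0.32, adjusted p = 3.99e-07). The members that rose were all glutathione transferases. Gsta1 had 1.52, 1.001, 1.17 and 0 CPM on ND and 15.8, 22.03, 34.99 and 27.7 CPM on CDAHFD (log2 change 4.96 ± 0.49, adjusted p = 3.03e-07), Gsta4 changed by 0.51 ± 0.16 and Gstm2 by 1.18 ± 0.22 (adjusted p = 0.0197 and 0.000427). Gstm1 had 1161, 1299.5, 1051 and 1098 CPM on ND and 995, 1221, 2154 and 1254 CPM on CDAHFD and did not pass (log2 change 0.29 ± 0.17, adjusted p = 0.217), with its highest value in replicate 3, but it passed with library size alone (adjusted p = 0.0121).

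Oxidative stress genes rose with them. In the list of NRF2 targets, which protect cells from electrophiles, 10 of 19 rose and none fell (9 and 0 without replicate 3). Nqo1, a quinone reductase, had 10.02, 11.01, 12.5 and 11.8 CPM on ND and 16.4, 24.3, 25.8 and 20.9 CPM on CDAHFD (log2 change 0.95 ± 0.19, adjusted p = 0.000691). Hmox1, haem oxygenase, had 24.9, 24.8, 19.9 and 25.8 CPM on ND and 68.5, 53.1, 66.01 and 56.7 CPM on CDAHFD (log2 change 1.34 ± 0.16, adjusted p = 3.91e-06). Both were higher in every CDAHFD-fed mouse. Srxn1, which repairs peroxiredoxins, rose by 1.95 ± 0.16, and the glutathione transferases Gstm3 and Gsta2 by 2.30 ± 0.25 and 1.14 ± 0.28 (adjusted p at most 0.00364). In the unfolded protein and integrated stress list 7 of 24 rose and 5 fell (7 and 6 without replicate 3, and 11 and 5 with library size alone). The 7 and 5 were 29.2% and 20.8% of the list, beside 16.9% and 13.9% of all genes. Atf3, a stress-induced transcription factor, had 1.21, 2.003, 1.56 and 2.87 CPM on ND and 24.4, 23.8, 22.9 and 25.7 CPM on CDAHFD (log2 change 3.55 ± 0.21, adjusted p = 2.43e-10). The stress-induced Nupr1, Trib3 and Gdf15 rose by 3.22 ± 0.50, 1.66 ± 0.23 and 1.15 ± 0.33 (adjusted p at most 0.0119), while the endoplasmic reticulum stress sensor Ern1 fell (log2 change -1.14 ± 0.30, adjusted p = 0.00685). The chaperone Hspa5 did not pass (log2 change -0.60 ± 0.24, adjusted p = 0.058). It passed with DESeq2, with no low-count filter, with the replicate block and with only the groups compared (adjusted p = 0.0473, 0.00108, 0.0443 and 0.0352), and without any one of ND-fed WT replicates 1 or 4, ND-fed Cyp2b-null replicate 4 or CDAHFD-fed Cyp2b-null replicate 3 (down to 0.0202).

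Acute phase and interferon genes were measured as further lists. Of 23 acute phase proteins 9 rose and 6 fell, with or without replicate 3, but 12 rose and 2 fell with library size alone. The 9 and 6 were 39.1% and 26.1% of the list, beside 16.9% and 13.9% of all genes. Lcn2, an iron-sequestering lipocalin, had 2.43, 2.003, 0.39 and 2.36 CPM on ND and 264, 191, 378 and 167 CPM on CDAHFD (log2 change 6.99 ± 0.64, adjusted p = 9.23e-08). Saa1, serum amyloid A, had 13.7, 32.6, 17.2 and 24.3 CPM on ND and 334, 251, 445 and 162 CPM on CDAHFD (log2 change 3.73 ± 0.39, adjusted p = 6.15e-07), and Saa2, with which it shares most of its sequence, changed by 3.71 ± 0.43 (adjusted p = 2.08e-06). The values of these genes on CDAHFD were highest in replicate 3 and remained far above ND in the other 3 libraries. Orm2 and Saa3 rose by 3.74 ± 0.43 and 2.94 ± 0.35 (adjusted p at most 3.67e-06). Hamp2, a hepcidin paralog, had 473, 331, 549 and 205 CPM on ND and 34.5, 36.8, 33.5 and 16.05 CPM on CDAHFD (log2 change -3.69 ± 0.53, adjusted p = 2.64e-05). Interferon response genes rose in 20 of 23 cases and fell in none (21 higher without replicate 3), with a median of 1.24. Ifit1, an antiviral RNA-binding protein, had 15.5, 8.81, 12.5 and 11.8 CPM on ND and 21.5, 34.2, 31.6 and 26.9 CPM on CDAHFD (log2 change 1.26 ± 0.26, adjusted p = 0.00104). Oas1a, an oligoadenylate synthetase, rose by 2.08 ± 0.30, the ubiquitin-like Isg15 by 1.88 ± 0.29, Oasl1 by 1.83 ± 0.25 and the Isg15 protease Usp18 by 1.79 ± 0.23 (adjusted p at most 6.09e-05).

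Genes that differ between the sexes in mouse liver moved with the diet. Of 24 genes known to be higher in females 21 fell and none rose, with or without replicate 3, and their median of -1.88 was the lowest of the lists with at least 6 tested members. Their summed level was 4809 to 6189.9 CPM on ND and 779 to 1957 on CDAHFD. Cyp17a1, a steroid hydroxylase, had 145, 79.3, 148 and 77.97 CPM on ND and 26.2, 43.1, 24.2 and 30.97 CPM on CDAHFD (log2 change -1.84 ± 0.47, adjusted p = 0.00559). Its values did not overlap between the diets. Of 17 tested genes known to be higher in males 5 rose and 5 fell, with or without replicate 3. Mup20, a major urinary protein that males use as a pheromone, had 32.2, 37.2, 34.3 and 28.9 CPM on ND and 975, 952, 1059 and 639 CPM on CDAHFD (log2 change 4.77 ± 0.31, adjusted p = 7.24e-10). The selenium-binding Selenbp2 and complement component C6 rose by 2.404 ± 0.31 and 1.92 ± 0.30 (adjusted p = 8.59e-06 and 6.07e-05). Mup7 had 48.3, 59.1, 130.3 and 51.3 CPM on ND and 25.7, 22.2, 24.3 and 4.85 CPM on CDAHFD (log2 change -1.92 ± 0.45, adjusted p = 0.00302) and Mup17 changed by -2.66 ± 0.58 (adjusted p = 0.00156), or by -1.68 without ND-fed replicate 3 (adjusted p = 0.0112), both opposite to Mup20, within a family of near-identical genes whose reads may be shared. Cyp2d9, a male steroid hydroxylase, had 42.8, 61.7, 47.6 and 39.2 CPM on ND and 50.1, 30.2, 66.01 and 25.1 CPM on CDAHFD and did not pass (log2 change -0.17 ± 0.32, adjusted p = 0.724).

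Regulators of hepatocyte metabolism were mostly lower where called. Of 28 nuclear receptors and partners 13 fell and 1 rose, with or without replicate 3, but with library size alone 6 fell and 6 rose. Ghr, the growth hormone receptor, had 619, 641, 699 and 631 CPM on ND and 355, 346, 269 and 245 CPM on CDAHFD (log2 change -1.09 ± 0.16, adjusted p = 3.09e-05). Esr1, the oestrogen receptor, had 52.5, 34.2, 41.7 and 35.4 CPM on ND and 20.2, 23.3, 22.002 and 14.1 CPM on CDAHFD (log2 change -1.04 ± 0.20, adjusted p = 0.000479). Both were lower in every CDAHFD-fed liver. The glucocorticoid receptor Nr3c1 fell by 0.80 ± 0.17 and the thyroid hormone receptor Thrb by 1.08 ± 0.18 on the log2 scale (adjusted p = 0.00112 and 0.000142). Ppara, the fatty acid sensor, and Rora also fell (-0.77 ± 0.20 and -0.88 ± 0.23, adjusted p = 0.00676 and 0.00657), calls lost with library size alone, where Nr3c1 changed by -0.53. In the glucocorticoid-responsive list 9 of 18 fell and 3 rose (7 and 3 without replicate 3, and 5 and 3 with library size alone). The rises were 16.7% of the list, near the 16.9% of all genes. Those that rose were Cdkn1a, Lcn2 and Calml4, which stand in other lists too. Fkbp5, a co-chaperone of the receptor, had 13.96, 22.2, 15.6 and 21.9 CPM on ND and 8.57, 8.38, 9.02 and 5.72 CPM on CDAHFD (log2 change -1.26 ± 0.34, adjusted p = 0.00752). Lpin1, a phosphatidate phosphatase, had 255, 201, 87.4 and 113 CPM on ND and 31.4, 51.5, 38.4 and 30.8 CPM on CDAHFD (log2 change -2.11 ± 0.46, adjusted p = 0.00168).

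Zonal hepatocyte genes and mitochondrial genes showed smaller changes. Of 18 pericentral genes 2 rose and 4 fell (2 and 3 without replicate 3), and of 17 periportal genes 3 rose and 8 fell (3 and 10 without it). The pericentral shares were 11.1% and 22.2% and the periportal shares 17.6% and 47.1%, beside 16.9% and 13.9% of all genes. With library size alone 5 pericentral genes rose and 2 fell, and 4 periportal genes rose and 3 fell, so that neither balance held under that scaling. The defining genes Glul, glutamine synthetase of pericentral cells, and Cyp2f2, of periportal cells, had log2 changes of 0.12 ± 0.16 and -0.09 ± 0.13 and did not pass. The ammonia channel Rhbg and the chemotactic protein Lect2 rose (1.60 ± 0.27 and 0.66 ± 0.15), and the vasopressin receptor Avpr1a and the lactonase Rgn fell (-1.197 ± 0.22 and -0.82 ± 0.14, adjusted p at most 0.00247 for the 4). Apoa4, an apolipoprotein of triglyceride-rich particles, had 291, 213, 299 and 352 CPM on ND and 1367, 1214, 2348 and 2679 CPM on CDAHFD (log2 change 2.72 ± 0.37, adjusted p = 1.34e-05). Aldh1b1 rose and Etnppl, an ethanolamine phosphate lyase, fell (1.28 ± 0.23 and -1.32 ± 0.16, adjusted p = 0.00028 and 3.06e-06). Of 30 respiratory chain subunits 3 fell and none rose, below the 13.9% of all genes that fell, and with library size alone none fell and 2 rose, but 8 fell without replicate 3, in which these subunits were higher by a median of 0.636. Ndufs1 and Sdhd changed by -0.54 ± 0.13 and -0.42 ± 0.12 (adjusted p = 0.00283 and 0.01), calls lost with library size alone.

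Of the genes that the study named in females from these same samples, 9 form a list here, so their direction is not independent evidence. The study named them for CDAHFD-fed Cyp2b-null against CDAHFD-fed WT females, which is not the diet comparison given here. It also named others for those groups, among them Acvrl1 and, by qPCR, Col1a1, Cd68 and G6pc, all given above. Of the 9 genes 6 were tested, 3 rose and 2 fell on CDAHFD, with or without replicate 3. Calml4, a calmodulin-like protein, had 0.91, 0.2, 0.78 and 0.675 CPM on ND and 3.11, 3.62, 1.44 and 3.86 CPM on CDAHFD (log2 change 2.29 ± 0.49, adjusted p = 0.0013). Il6ra, the interleukin 6 receptor chain, had 45.2, 69.9, 45.2 and 54.2 CPM on ND and 26.99, 25.98, 9.74 and 18.7 CPM on CDAHFD (log2 change -1.42 ± 0.30, adjusted p = 0.00109). The other 3 called members, Tgfb2, Ccr7 and Cyp27a1, are given above, and Ndufa4 had 244, 247, 302 and 236 CPM on ND and 231, 218, 387 and 197 CPM on CDAHFD (log2 change 0.01 ± 0.18, adjusted p = 0.979). Cd8b1, Nfatc2 and Tnfrsf18 were below the count filter, with at most 2.49 CPM in any of the 8 libraries.

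Checks on other cell sources gave the following. Of 20 markers of pancreas, fat, muscle, kidney and gut 2 were tested, 1 rose with or without replicate 3 (Fabp2, given above) and 7 were at 0 in all 8 libraries. Of 5 red cell genes 1 rose, with or without replicate 3. This was Alas2 (log2 change 1.45 ± 0.21, adjusted p = 3.55e-05), a haem synthesis enzyme. The median of the list was 0.83 and became 0.24 without replicate 3, and 4 rose with library size alone. The summed level of the red cell list was 221 to 341 CPM on ND and 221 to 858 on CDAHFD.

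**Figure D4:**
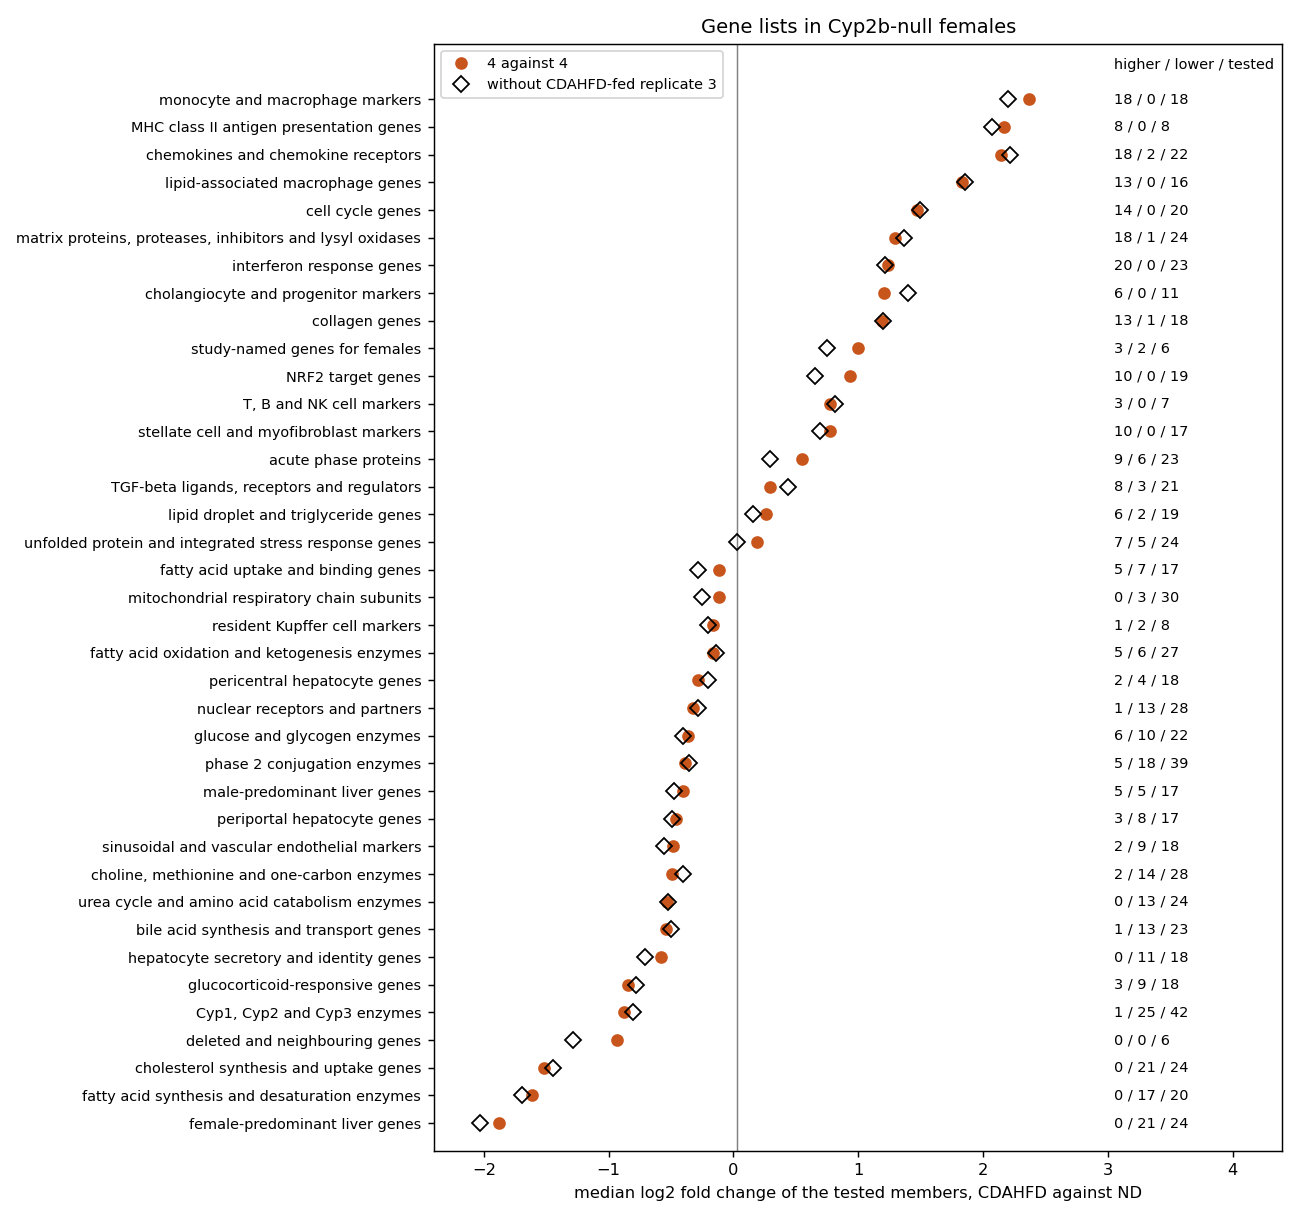
Median log2 change of the tested members of each gene list with at least 6 tested members, CDAHFD against ND in Cyp2b-null females, for all 8 libraries (filled circles) and without CDAHFD-fed replicate 3 (open diamonds), with the numbers that rose, fell and were tested at the right and the median of all genes as a grey line. Monocyte and macrophage markers lie highest at 2.37 and female-predominant genes lowest at -1.88.

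Some calls changed when single libraries were left out. Des, a stellate cell filament, had 5.46, 7.01, 5.46 and 6.08 CPM on ND and 4.67, 11.01, 16.2 and 9.08 CPM on CDAHFD (log2 change 0.77 ± 0.28, adjusted p = 0.0414) and lost its call without any one of CDAHFD-fed WT replicate 1, ND-fed Cyp2b-null replicates 1, 2, 3 or 4 or CDAHFD-fed Cyp2b-null replicates 2 or 3 (adjusted p up to 0.178). Plin2, the main droplet coat protein of hepatocytes, had 336, 659, 353 and 663 CPM on ND and 622, 831, 769.7 and 862 CPM on CDAHFD (log2 change 0.62 ± 0.22, adjusted p = 0.0416). Its call was lost without any one of ND-fed WT replicate 1, CDAHFD-fed WT replicates 1 or 2, ND-fed Cyp2b-null replicates 1 or 3 or CDAHFD-fed Cyp2b-null replicates 2, 3 or 4 (adjusted p up to 0.142). Neither call therefore held with every single library left out. Cyp4a14 (log2 change -1.13 ± 0.39, adjusted p = 0.0325) and Acot1 (log2 change -1.80 ± 0.57, adjusted p = 0.0196) fell, the former not without ND-fed Cyp2b-null replicates 2 or 4 or CDAHFD-fed Cyp2b-null replicates 1, 2 or 3 (adjusted p up to 0.0869) and the latter not without ND-fed Cyp2b-null replicates 2 or 4 or CDAHFD-fed Cyp2b-null replicate 1 (up to 0.081). Chdh, which oxidises choline to betaine, fell (log2 change -0.46 ± 0.15, adjusted p = 0.0262), but not without ND-fed Cyp2b-null replicates 2 or 4 or CDAHFD-fed Cyp2b-null replicate 3 (up to 0.0844). Pck1, the gatekeeper of gluconeogenesis, fell (log2 change -1.02 ± 0.33, adjusted p = 0.0246), but not without ND-fed Cyp2b-null replicates 1 or 2 or CDAHFD-fed Cyp2b-null replicate 2 (up to 0.0558). The xenobiotic receptors Nr1i3, known as CAR, and Nr1i2, known as PXR, fell slightly (-0.51 ± 0.18 and -0.49 ± 0.18, adjusted p = 0.0322 and 0.0429). Nr1i3 was not called without ND-fed Cyp2b-null replicates 1 or 2 or CDAHFD-fed Cyp2b-null replicates 1, 2 or 4 (up to 0.0984), and Nr1i2 was not called without ND-fed Cyp2b-null replicates 2, 3 or 4 or CDAHFD-fed Cyp2b-null replicates 1, 2 or 4 (up to 0.147). Tsc22d3, the glucocorticoid-induced leucine zipper, fell (log2 change -1.08 ± 0.36, adjusted p = 0.0275), but not without ND-fed Cyp2b-null replicates 1 or 2 or CDAHFD-fed Cyp2b-null replicates 1 or 4 (up to 0.0795). The lipogenic receptor Pparg rose (log2 change 0.54 ± 0.16, adjusted p = 0.0133), but not without CDAHFD-fed Cyp2b-null replicate 4 (up to 0.0672). A1bg, a female-predominant plasma protein, fell (log2 change -1.64 ± 0.58, adjusted p = 0.0353), but not without ND-fed Cyp2b-null replicate 3 or CDAHFD-fed Cyp2b-null replicates 1, 2 or 4 (up to 0.114), and Serpina1e, a male-predominant protease inhibitor, fell (log2 change -2.51 ± 0.80, adjusted p = 0.0212), but not without ND-fed Cyp2b-null replicate 3 or CDAHFD-fed Cyp2b-null replicates 2 or 4 (up to 0.063). Sdha fell (log2 change -0.40 ± 0.12, adjusted p = 0.0153), but not without ND-fed Cyp2b-null replicate 2 (up to 0.0532). The liver hormone Fgf21 was not called (log2 change 1.28 ± 0.50, adjusted p = 0.0585) and was called without ND-fed Cyp2b-null replicate 4 (down to 0.00542), with library size alone, with no low-count filter and with the replicate block (adjusted p = 0.023, 5.14e-05 and 0.0242). With library size alone the calls of Cyp4a14, Chdh, Pck1, Nr1i3, Nr1i2, Tsc22d3, A1bg and Sdha were lost as well (adjusted p up to 0.421). With DESeq2 those of Cyp4a14 and A1bg were lost, with only the groups compared those of Des, Plin2 and Chdh, and with no low-count filter that of Pparg (adjusted p up to 0.0799).

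Whether the diet effect differed between Cyp2b-null and WT females was tested as an interaction in the same fit. No gene of 13226 (0%) passed an adjusted p of 0.05, although 830 had an unadjusted p under 0.05, DESeq2 called 2 and the smallest adjusted p was 0.0589. The genotypes had separate ND-fed controls. In WT females 3193 of the 13226 genes were called for diet, 1838 higher and 1355 lower, fewer than in Cyp2b-null females. In both genotypes 2317 genes were called, 56.9% of the calls in Cyp2b-null and 72.6% of those in WT females. An interaction that does not pass says only that no difference was detected with 4 mice per group. The smallest p were for Ankrd60, Abhd17b, Sftpd, Gm6135 and Rn18s-rs5. Ankrd60 changed by 1.204 ± 0.31 in Cyp2b-null and -1.40 ± 0.28 in WT females (difference 2.60 ± 0.42, adjusted p = 0.0589). Sftpd, surfactant protein D, a lectin of innate immunity, changed by 3.047 ± 0.64 and -0.33 ± 0.47 (adjusted p = 0.76).

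For the leading genes the effects lay side by side. Gpnmb had means of 246 CPM in CDAHFD-fed Cyp2b-null and 207 in CDAHFD-fed WT females. Scd1 changed by -5.86 ± 0.38 and -6.29 ± 0.38, Col1a1 by 4.13 ± 0.37 and 3.35 ± 0.34, and Cd68 by 2.35 ± 0.23 and 2.52 ± 0.23. The interferon list had 20 members called higher in Cyp2b-null and 10 in WT females of 23 tested, with medians of 1.24 and 0.71. For 6 of them the interaction had an unadjusted p under 0.05 and for 0 an adjusted one. The respiratory chain list had 3 members lower in Cyp2b-null and 14 in WT females, where the count in Cyp2b-null females without replicate 3 was 8. No member of either list passed the interaction test.

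The diet effect in Cyp2b-null females was then set against that in Cyp2b-null males, in a fit of all 32 libraries. It differed for 477 of 14020 genes tested (3.40%), being higher in females for 184 and lower for 293. The count fell to 238, 298 and 311 when CDAHFD-fed male replicate 3, ND-fed male replicate 2 or ND-fed male replicate 4 was left out. It was 345 without CDAHFD-fed female replicate 3, and 324 and 330 without ND-fed female replicates 2 and 1. DESeq2 called 701. Among genes called for diet in both sexes in this fit (2850), 2807 had the same sign and 43 opposite signs. Of the 13226 genes tested in the fit of females, 2641 rose and 2252 fell in males, beside 2240 and 1834 in Cyp2b-null females. These male calls come from the fit of all 32 libraries and the female calls from the fit of females alone, so part of the gap may lie in the fit. Within the fit of all 32 libraries, 5173 genes were called for diet in males and 4500 in Cyp2b-null females. Sex here is also a difference between deposited tables, and whether males and females were sequenced together is not stated.

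Male-predominant genes fell in males. Of 21 male-predominant genes tested in this fit 20 fell in males and none rose, with a median of -2.399, while the fit of females alone tested 17 of them, of which 5 rose and 5 fell. Those that were tested only with the males included, and others near 0 in females, had little room to fall there, so differences between the sexes are not counted for this list or for female-predominant genes in males. Of 24 female-predominant genes 3 rose and 3 fell in males, beside 2641 and 2252 of all 13226 genes. In the fit of females alone 21 of the 24 fell. Most genes of each sex's own list thus fell on CDAHFD in that sex.

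Mup20 changed by 4.75 ± 0.40 in females and -0.96 ± 0.33 in males (difference 5.71 ± 0.51, adjusted p = 1.2e-08). Elovl3, a male-predominant fatty acid elongase, changed by -0.57 ± 0.67 in females and -5.59 ± 0.43 in males (difference 5.02 ± 0.82, adjusted p = 0.000364), and its highest value in these female libraries was 5.19 CPM. Cyp2a22 changed by -1.25 ± 0.25 in females and 2.05 ± 0.34 in males (difference -3.30 ± 0.42, adjusted p = 1.07e-05), so that it fell in females and rose in males. Cyp4a12a, an arachidonic acid hydroxylase of males, was at or below 2.70 CPM in every Cyp2b-null female library and fell in males from 286, 425, 322 and 273 to 80.3, 26.9, 47.98 and 40.8 CPM. Mup17 and Mup7 fell in both sexes and more in males, where the differences were 4.91 ± 1.01 and 4.44 ± 1.09 (adjusted p = 0.00484 and 0.0183). The difference of Mup7 was not called without CDAHFD-fed male replicate 3 (4.15, adjusted p = 0.0504), and in the fit of all 32 libraries its fall in females had an adjusted p of 0.056.

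Hao2 had 0, 0, 0.211 and 0 CPM in ND-fed and 0.161, 0, 0.833 and 0 CPM in CDAHFD-fed males. Its fitted difference depends on the prior count, so only the levels are described. Atp6v0d2, a proton pump subunit of macrophages and osteoclasts, changed by 0.72 ± 0.32 in females and 4.64 ± 0.42 in males (difference -3.91 ± 0.55, adjusted p = 5.22e-05), and it did not pass the test in females (adjusted p = 0.0864). There it passed with library size alone and with no low-count filter (adjusted p = 0.0215 and 0.00214) and without ND-fed WT replicate 3 or ND-fed Cyp2b-null replicate 1 (down to 0.04). Rad51b, a DNA repair gene, changed by 1.03 ± 0.38 in females and 4.50 ± 0.64 in males (difference -3.46 ± 0.80, adjusted p = 0.0116). In females its call was lost without any one of ND-fed WT replicate 2, CDAHFD-fed WT replicates 1, 2 or 4, ND-fed Cyp2b-null replicates 1, 2 or 3 or CDAHFD-fed Cyp2b-null replicates 1, 3 or 4 (adjusted p up to 0.129), and with DESeq2 and with only the groups compared (adjusted p = 0.0994 and 0.0535). For both the change was larger in males.

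Macrophage markers and most collagen genes rose in both sexes. For the counts that follow, 3.40% of all genes differed between the sexes, and in males 2641 of 13226 genes rose and 2252 fell. All 18 monocyte and macrophage markers rose in males, with a median of 3.46 beside 2.37 in females, and 8 of 18 differed, all lower in females. Of 19 collagen genes 4 differed, of which 1 had the higher effect in females, and 14 of 19 rose in males. Among 18 endothelial markers 7 rose and none fell in males, where 9 fell in females, and 6 differed. Cholesterol genes fell in 13 of 24 cases in males against 21 in females, and 4 differed, all lower in females. Glucocorticoid-responsive genes rose in 8 of 18 cases and fell in none in males, and 4 differed, all lower in females, among them Fkbp5. This gene changed by -1.28 ± 0.32 in females and 0.92 ± 0.34 in males (difference -2.20 ± 0.47, adjusted p = 0.00649). These counts share the dependence on single libraries of either sex given above. List members that rose or fell in males come from the fit of all 32 libraries, and those in females from the fit of females alone. Over all genes more were called in males than in females, also within the fit of all 32 libraries (5173 and 4500).

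**Figure D5:**
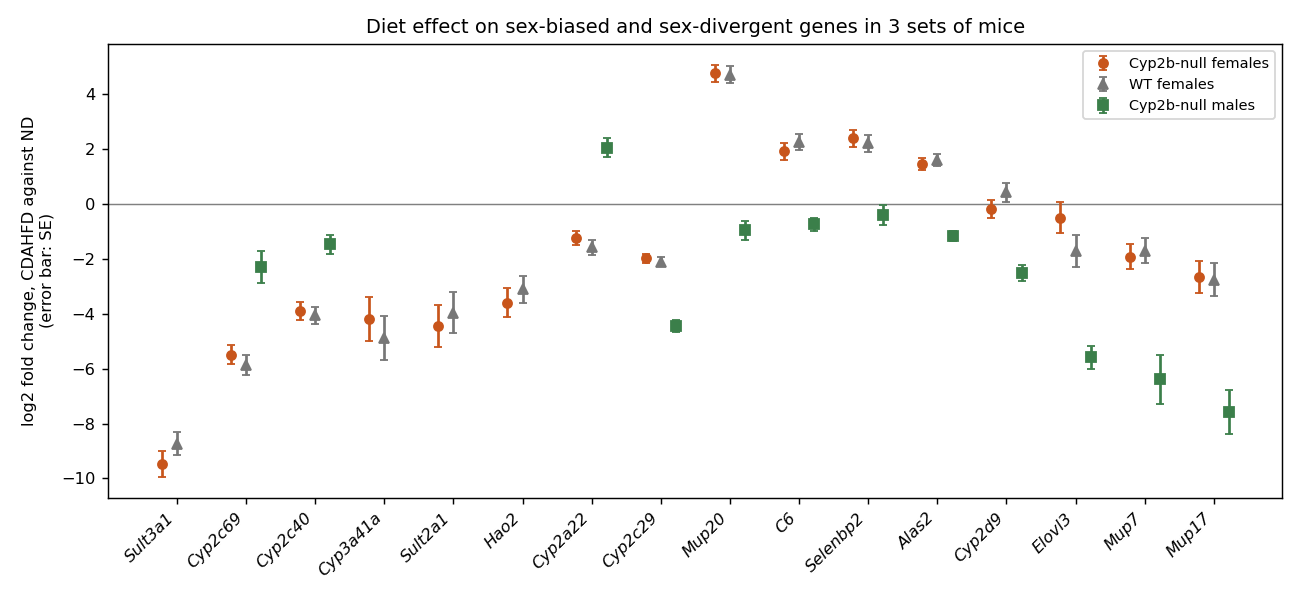
Log2 change, CDAHFD against ND, with standard error bars, for 16 genes in Cyp2b-null females (circles), WT females (triangles) and Cyp2b-null males (squares), where males are left out if both group means were under 1 CPM (Sult3a1, Cyp3a41a, Sult2a1 and Hao2). Mup20 lies at 4.77 in Cyp2b-null and 4.72 in WT females and at -0.96 in males, and Cyp2a22 at -1.23, -1.58 and 2.05.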

How the data were processed

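RNA of whole liver had been extracted with TRIzol and sequenced on a NovaSeq after NEB Next Ultra library preparation. Per the labels and the study's methods, the authors trimmed and aligned reads (Trimmomatic, GSNAP, build GRCm38.p6) and deposited raw counts per gene made with featureCounts of Subread; versions, strand and treatment of shared reads are not given in the sources used here. The deposited table of each sex held 41585 gene entries, 27 of them with symbols turned into dates. Groups came from the labels. The 16 female libraries were fitted together by genotype and diet in edgeR 4.0.16 (R 4.3.3, limma 3.58.1), with TMM scaling, filterByExpr (28359 entries removed) and the quasi-likelihood test, and p-values were adjusted by Benjamini-Hochberg over all genes tested. Genotype differences were an interaction in this fit, and sex differences came from a fit of all 32 libraries. Scripts were tested on simulated data. Alternatives were DESeq2 1.42.0, other scaling, other filters, a replicate block, only the groups compared, a 2-step rule and each library left out.

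The members and the 42 gene lists (802 genes) were chosen with earlier results of these data known. Named were the 12 largest rises and falls with at least 5 CPM in the higher group and no overlap (189 unnamed predicted genes skipped), preset and up to 4 further members of each list, the 5 smallest interaction p and the 5 largest sex differences each way, and 32 genes chosen after their values were seen, mainly list members that went against their list and clock genes. Some genes that these rules name are not reported here. Ratios carry exact 95% intervals, which, like the floor of 3 counts, cover counting error only. List counts without CDAHFD-fed replicate 3 cover the genes tested both with and without it.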

Additional observations from a re-analysis of the deposited data

Results flagged for a closer look

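In 28 of 457 groups of 4 libraries examined, 1 library lay farther from the others than Dixon's 95% critical value allows, and chance gives about 1 in 20. Of these values 16 were in ND-fed and 12 in CDAHFD-fed livers, 3 of them in CDAHFD-fed replicate 3.

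Among ND-fed libraries a single high value stood out for Hao2 in replicate 1 with 37.03 CPM (others 23.2 to 24.96) and Ms4a7 in replicate 1 with 2.731 CPM (others 0.169 to 0.401). The same held for Krt23 in replicate 2 with 5.407 CPM (others 1.35 to 1.82) and Cyp2b10 in replicate 3 with 2.34 CPM (others 0.169 to 0.401). Further highest values were those of Abhd17b in replicate 2 with 28.44 CPM (others 24.2 to 24.9) and Mup17 in replicate 3 with 152.9 CPM (others 22.8 to 33.1). Also set apart was Mup7 in replicate 3 with 130.3 CPM (others 48.3 to 59.1). Among ND-fed libraries a single low value stood out for Clec4f in replicate 3 with 107.6 CPM (others 162 to 169) and Cd5l in replicate 3 with 99.84 CPM (others 152 to 159). The same held for Cd74 in replicate 3 with 54.21 CPM (others 94.99 to 99.9) and Col3a1 in replicate 2 with 14.42 CPM (others 24.98 to 26.7). Further lowest values were those of Krt19 in replicate 2 with 0.2003 CPM (others 1.69 to 1.95) and H19 in replicate 2 with 0 CPM (others 0.78 to 0.91). Also set apart were Cd24a in replicate 3 with 0 CPM (others 3.34 to 3.60) and Rora in replicate 1 with 83.16 CPM (others 110.0 to 111). Another was Hmox1 in replicate 3 with 19.89 CPM (others 24.8 to 25.8). Among CDAHFD-fed libraries a single high value stood out for Sult2a1 in replicate 2 with 34.52 CPM (others 6.75 to 10.8) and Timd4 in replicate 4 with 2.363 CPM (others 1.04 to 1.26). The same held for Cd74 in replicate 3 with 501.2 CPM (others 294 to 326) and Ltbp1 in replicate 2 with 12 CPM (others 4.67 to 5.72). Further highest values were those of Pparg in replicate 4 with 30.97 CPM (others 20.8 to 22.4) and Fgf21 in replicate 4 with 22.64 CPM (others 8.57 to 9.38). Among CDAHFD-fed libraries a single low value stood out for Sprr1a in replicate 1 with 4.672 CPM (others 7.84 to 8.30) and Hamp2 in replicate 4 with 16.05 CPM (others 33.5 to 36.8). The same held for Plin4 in replicate 3 with 8.296 CPM (others 14.8 to 15.8) and Sdha in replicate 3 with 414.4 CPM (others 485 to 499.9). Further lowest values were those of Mup17 in replicate 4 with 1.99 CPM (others 11.7 to 12.5) and Mup7 in replicate 4 with 4.851 CPM (others 22.2 to 25.7).

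The diet effect differed between Cyp2b-null females and males, tested in the fit of all libraries, among others for the following genes, given as the female minus the male log2 change. It was lower in females for Hao2 (-6.018), Atp6v0d2 (-3.914), Rad51b (-3.465) and Cyp2a22 (-3.305). It was higher in females for Mup20 (5.707), Cyp4a12a (6.3), Elovl3 (5.023), Mup17 (4.909) and Mup7 (4.444). The values for Hao2 and Cyp4a12a depend on the prior count, because 1 sex was near 0. The difference of Hao2 was not called without any one of 12 libraries, with an adjusted p of 0.677 without CDAHFD-fed male replicate 3.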

How the results depend on the processing

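The number of genes called for diet in Cyp2b-null females was 4178 with DESeq2, 4088 with RLE scaling, 4685 with library size alone, 4269 with no filter on low counts, 4189 with a filter of 1 CPM in 4 libraries, 3335 with only the groups compared and 3488 by the study's 2-step rule, and 3205 to 4202 with 1 library left out. The interaction with genotype gave 2 calls with DESeq2, 46 with no filter and 1 with the CPM filter, and 0 to 1 with 1 library left out. The sex difference gave 923 calls with no filter and 238 to 578 with 1 library left out. Same-numbered libraries correlated at -0.0560, -0.0386, 0.0352 and 0.0563 in their deviations from group means, so the numbers were not taken to pair mice, and 1 number in 4 correlated best with itself. With the replicate block 3978, 0 and 453 genes were called for diet, genotype interaction and sex difference.

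With library size alone the log2 change turned positive for Clec4f (0.1371), Cyp2d9 (0.0549) and Cyp2f2 (0.1654) and the median for fatty acid oxidation (0.0859). Ndufa4 turned negative with no filter (-0.0327) and with the block (-0.0222), and the median of study-named genes with only the groups compared (-0.511). With 1 library left out the log2 changes ranged from -0.2677 to 0.0412 for Clec4f, -0.2257 to 0.268 for Cd79a, -0.6216 to 0.0949 for Cyp7a1, -0.1967 to 0.1437 for Pemt, -0.4726 to 0.0268 for Cyp2d9, -0.2551 to 0.1206 for Ndufa4 and -0.7994 to 0.0525 for Elovl3, none of them called, and the median of study-named genes from -0.4671 to 1.0404. The cause of these shifts was not tested. Of the other named-gene values under the alternatives, with all libraries kept, 1559 kept direction and side of the threshold, 23 lost their call and 28 gained one, where DESeq2 gave Cdkn1a no adjusted p. With 1 library left out the numbers were 3604, 63 and 25. Depth limits genes near the floor of 3 counts, 0.373 to 1.17 CPM on the scaled totals.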

Other observations

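ND-fed Cyp2b-null mice varied among themselves in genes of metabolism and of the circadian clock, a pattern chosen after the values were seen. Replicates 1 and 3 were above replicates 2 and 4 for Thrsp (573, 188, 375 and 123 CPM), Cyp7a1 (167, 26.8, 145 and 54.3 CPM) and Tat (2099, 817, 1712 and 612 CPM), and below them for Acot1 (19.4, 114, 31.6 and 123 CPM). Among clock genes, Arntl, which encodes the activator BMAL1, had 0.303, 3.004, 4.68 and 5.74 CPM on ND and 2.86, 2.79, 1.26 and 2.24 CPM on CDAHFD. Usp2, a deubiquitinase under clock control, had 69.5, 30.04, 25.3 and 7.09 CPM on ND and 13.5, 19.7, 29.4 and 23.8 CPM on CDAHFD, and the repressor Ciart had 14.3, 5.21, 3.90 and 0.844 CPM on ND and 3.11, 3.12, 3.79 and 2.36 CPM on CDAHFD. Replicate 1 was lowest for Arntl and highest for Usp2 and Ciart, and replicate 4 the reverse. None of the 3 was called for diet (adjusted p = 0.403, 0.436 and 0.327). The times of day at which livers were taken are not given in the sources used here.

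Other clock genes were called for diet. The repressor Bhlhe41 had 0.607, 1.80, 4.68 and 0.506 CPM on ND and 15.8, 8.88, 9.92 and 8.21 CPM on CDAHFD (log2 change 2.68 ± 0.46, adjusted p = 0.000177). Cry1 had 8.19, 10.8, 8.58 and 8.44 CPM on ND and 5.71, 1.64, 3.61 and 4.10 CPM on CDAHFD (log2 change -1.30 ± 0.33, adjusted p = 0.00574), and Nr1d2 had 134, 149.6, 158 and 110.2 CPM on ND and 96.3, 97.3, 62.8 and 107 CPM on CDAHFD (log2 change -0.60 ± 0.16, adjusted p = 0.00774). Bhlhe41 and Cry1 did not overlap between diets, nor did Nr1d2. Per2 (log2 change -0.46 ± 0.40, adjusted p = 0.401), Dbp (log2 change 0.33 ± 0.38, adjusted p = 0.548) and Per3 (log2 change -1.12 ± 0.42, adjusted p = 0.0502) did not pass. In CDAHFD-fed replicate 3 the nuclear non-coding RNA Malat1 had 128 CPM and the ribosomal protein gene Rps19 107 CPM, where the other 3 CDAHFD-fed libraries had 802, 469.9 and 406 CPM of Malat1 and 35.8, 40.4 and 46.8 CPM of Rps19.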
